A study of Homo sapiens with 10 samples.

Results

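The factors described here are transcription factors that hold the noradrenergic, sympathetic identity of neuroblastoma cells. The list has 8 genes: PHOX2A, HAND1, HAND2, GATA2, GATA3, ISL1, TBX2 and INSM1. Each gene was read from the probe set that the platform annotation gives to that symbol alone. This rule measured 7 of the 8 factors, out of 14232 named genes on the array. HAND2 was not analysed, because its only probe set is also annotated to the neighbouring non-coding gene HAND2-AS1.

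The cells were SH-SY5Y, a human neuroblastoma line of sympathetic type, with a stably transfected gene, either wild-type SOD1 or SOD1(G93A). SOD1 encodes a superoxide dismutase that uses copper and zinc, and its mutation G93A is a cause of inherited amyotrophic lateral sclerosis (ALS). RNA was measured on Affymetrix exon arrays, 5 per group: samples 2, 8, 11, 14 and 17 carried wild-type SOD1, and samples 3, 9, 12, 15 and 18 carried SOD1(G93A). All cells were kept in G418, which selects for the transfected DNA. The labels name neither the promoter of the transfected gene nor whether a line was 1 clone or a pool of cells. Nothing in the labels says that the 5 samples of a group were separate cultures, so p-values cover only sample-to-sample spread, and that spread may be technical. The effect of the mutation and that of 2 separately made lines cannot be told apart.

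In sympathetic neurons, adrenal chromaffin cells and neuroblastoma, a small set of transcription factors binds its own enhancers and those of the others and keeps the set on. PHOX2A and ISL1 are homeodomain proteins, HAND1 and HAND2 are basic helix-loop-helix (bHLH) proteins, GATA2 and GATA3 are zinc-finger proteins that read GATA sites, TBX2 is a T-box protein and INSM1 a zinc-finger repressor of neuroendocrine cells. Together with MYCN they drive the enzymes and transporters of noradrenaline. Neuroblastoma cells can also take a mesenchymal state, in which a different set of factors is active.

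Among the measured factors, 2 fell and 1 rose in the SOD1(G93A) cells, and 4 were not past the threshold. GATA2 fell to 67.1% of its wild-type level and GATA3 to 76.7%, while TBX2 rose to 130% of it. The calls are by limma at a Benjamini-Hochberg adjusted p of 0.05 or less, taken over the 22011 probe sets together. The 3 called factors of 7 stand beside 7.46% of all probe sets called in either direction, 3.24% called higher and 4.23% called lower. Of all named genes, which were read by the same rule as the factors, 9.60% were called in either direction. No factor reached the 2-fold change (absolute log2 fold change of 1) that the labels also ask for, which 0.872% of probe sets passed with an adjusted p of 0.05 or less. At an unadjusted p under 0.05, limma had 5 of the 7, 2 higher and 3 lower, and the unmoderated test also called 3. No share of all probe sets at that cutoff, or under that test, stands beside these counts. The median absolute log2 fold change of the factors was 0.23, against 0.086 over all named genes. The members were chosen with earlier results of these data known, so their share is a description.

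The 250 bases before the annotated start of 3 of the factors are shown from RefSeq, because GATA2 and GATA3 fell together and ISL1 is the measured factor whose window holds the most GATAA letters. Capitals mark the letters GATAA that GATA factors read, the E-box CANNTG that bHLH factors read, and GGTGTG, the core letters of a T-box site. Each was searched on both strands, and the 3 do not overlap in these windows.

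GATA2 (GRCh38.p14, chr3:128493202-128493451, minus strand): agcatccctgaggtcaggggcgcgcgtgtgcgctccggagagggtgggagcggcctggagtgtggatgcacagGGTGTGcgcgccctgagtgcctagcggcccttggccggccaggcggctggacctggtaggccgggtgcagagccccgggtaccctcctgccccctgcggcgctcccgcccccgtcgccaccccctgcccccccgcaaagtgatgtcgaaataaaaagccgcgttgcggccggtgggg

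GATA3 (GRCh38.p14, chr10:8045083-8045332, plus strand): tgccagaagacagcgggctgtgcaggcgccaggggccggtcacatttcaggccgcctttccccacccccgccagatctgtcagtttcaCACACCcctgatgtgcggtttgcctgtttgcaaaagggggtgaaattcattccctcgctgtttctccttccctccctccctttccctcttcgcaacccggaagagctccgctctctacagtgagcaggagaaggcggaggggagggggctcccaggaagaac

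ISL1 (GRCh38.p14, chr5:51383198-51383447, plus strand): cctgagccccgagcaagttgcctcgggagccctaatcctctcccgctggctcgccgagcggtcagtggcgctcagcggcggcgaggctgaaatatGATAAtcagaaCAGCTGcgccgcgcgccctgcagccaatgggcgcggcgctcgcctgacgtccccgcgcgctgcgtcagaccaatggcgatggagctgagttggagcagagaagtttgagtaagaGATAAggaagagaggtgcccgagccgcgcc

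The GATA2 and GATA3 windows each hold 1 match to GGTGTG, 177 and 162 bases before the start, and none to GATAA or the E-box. The ISL1 window holds 2 GATAA matches, 155 and 30 bases before the start, and 1 E-box, and no GGTGTG. Of 27305 RefSeq windows of this length, 14% hold GGTGTG, 21% hold GATAA and 62.2% an E-box. Of the 8 factors 6 had a window in the table. PHOX2A holds 1 GGTGTG, HAND1 holds 1 GATAA, and HAND2 holds 3 GATAA and 1 E-box. TBX2 and INSM1 had no entry. The GATA2 window is 72.8% G and C and the GATA3 window 60.8%, both above the median of 58% over all windows. Each window comes from 1 annotated start per gene, and other starts of these genes were not examined. A match of letters is not a binding site, and no factor's binding was measured.

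GATA2, a zinc-finger factor of sympathetic and blood cell development, gave log2 intensities of 10.52, 10.61, 10.67, 10.68 and 10.89 in wild-type samples 2, 8, 11, 14 and 17. In SOD1(G93A) samples 3, 9, 12, 15 and 18 it gave 10.23, 9.90, 10.14, 10.09 and 10.15. Every SOD1(G93A) array was below every wild-type array, with sample 9 lowest. The means were 10.67 ± 0.14 and 10.10 ± 0.12 (SD, n = 5 each). The log2 fold change was -0.58 (SE 0.083, 95% interval -0.76 to -0.39; limma adjusted p = 0.00131).

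GATA3, its close relative and a factor that sympathetic neurons need to form and survive, read 10.36, 10.25, 10.19, 10.34 and 10.46 in the same order of wild-type samples. It read 9.96, 9.89, 9.80, 10.10 and 9.93 in the SOD1(G93A) samples. Again no SOD1(G93A) array reached a wild-type array, and the nearest were sample 15 at 10.10 and sample 11 at 10.19. The means were 10.32 ± 0.11 and 9.94 ± 0.11 (SD, n = 5 each), a log2 fold change of -0.38 (SE 0.072, 95% interval -0.54 to -0.22; limma adjusted p = 0.00732). Groups that do not overlap were found for 3 of the 7 factors and for 8.88% of all probe sets.

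GATA3-AS1, a non-coding gene annotated within the span of GATA3 on the opposite strand, was added after its values were seen. It fell from 8.00 ± 0.071 to 7.56 ± 0.15 (n = 5 each, ± SD; log2 fold change -0.44, SE 0.075, limma adjusted p = 0.00364). Whether its probes also read GATA3 was not examined. Of the 10 nearest named genes around GATA3 in RefSeq order, 5 on each side, 3 fell and 0 rose, beside 9.60% of all named genes called: GATA3-AS1, PRKCQ by 0.29 and CELF2 by 0.67. Around GATA2, 0 of 10 neighbours were called by limma, and their log2 fold changes ran from -0.23 to 0.11.

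TBX2, a T-box repressor that restrains cell cycle inhibitors, moved the other way. Its wild-type values were 8.48, 8.55, 8.75, 8.55 and 8.82, and its SOD1(G93A) values 8.99, 8.83, 9.05, 9.20 and 8.97. The groups did not overlap, but only narrowly, with wild-type sample 17 at 8.82 and SOD1(G93A) sample 9 at 8.83. The means were 8.63 ± 0.15 and 9.01 ± 0.13 (SD, n = 5 each), a log2 fold change of 0.38 (SE 0.087, 95% interval 0.18 to 0.57; limma adjusted p = 0.0246). Leaving out any 1 of samples 2, 8 and 14 (wild-type) or 3, 12 and 15 (SOD1(G93A)) ended the call, with adjusted p between 0.0513 and 0.0633 and a log2 fold change of at least 0.33. Of its 10 nearest named genes 0 were called, and TBX4, the T-box gene beside it, named for its place, had a log2 fold change of 0.061 (adjusted p = 0.734).

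**Figure D1:**
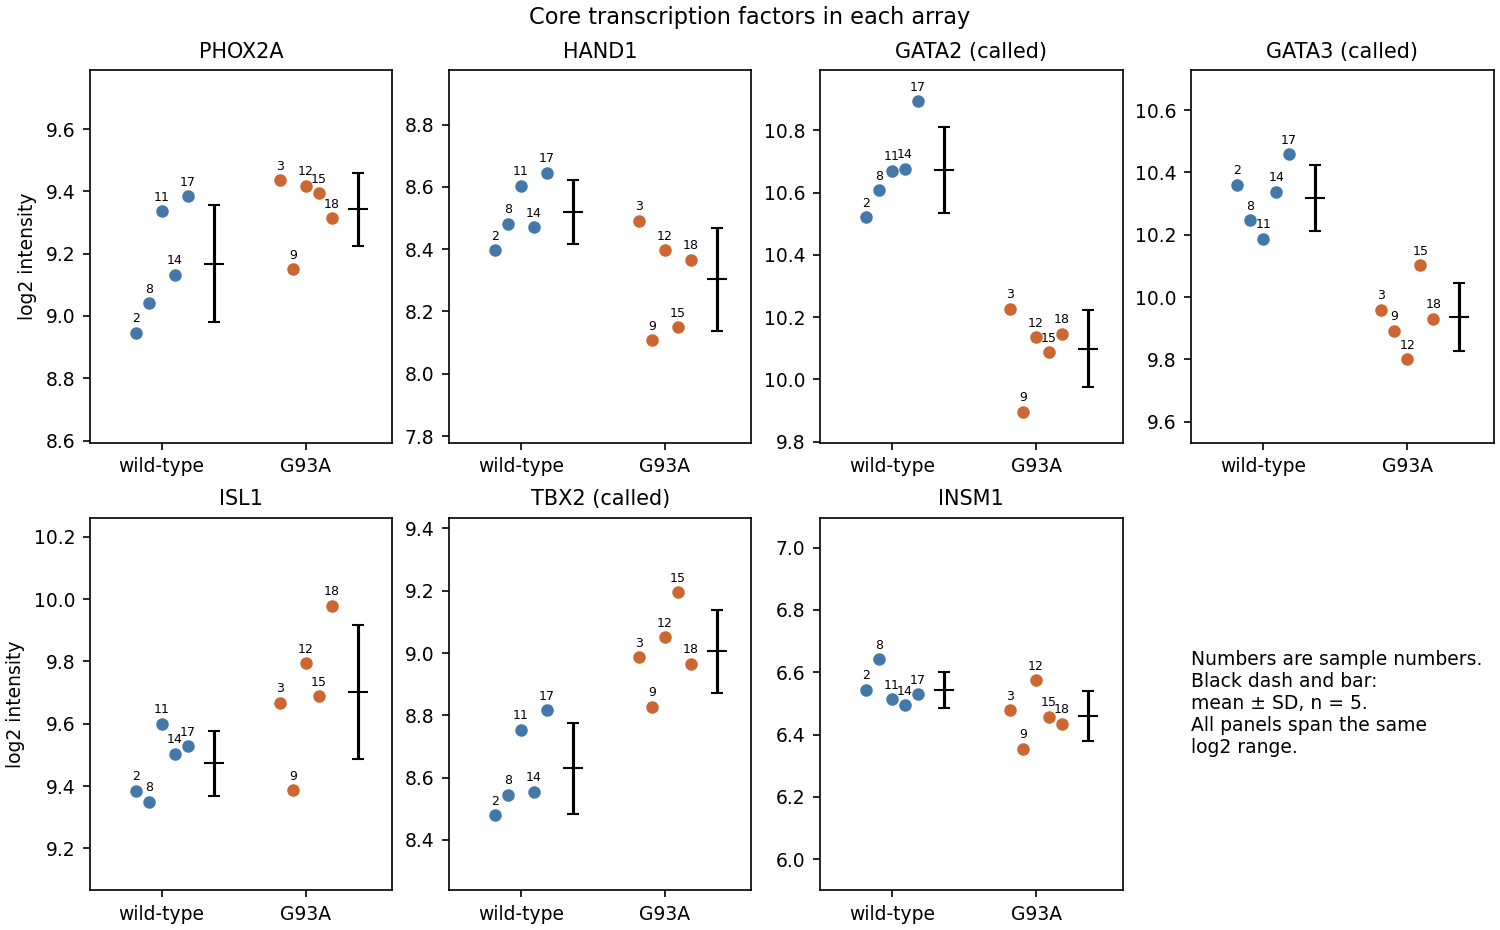
Log2 intensity (vertical axis) of the 7 measured factors in each of the 10 arrays, wild-type SOD1 in blue and SOD1(G93A) in orange, with sample numbers and mean ± SD (n = 5). GATA2, GATA3 and TBX2 show no overlap of the groups, and the other 4 factors do overlap; levels of different factors come from different probes and are not to be set against each other.

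PHOX2A, the homeodomain activator of the noradrenaline synthesis gene DBH, read 8.95, 9.04, 9.34, 9.13 and 9.38 with wild-type SOD1 and 9.44, 9.15, 9.42, 9.39 and 9.31 with SOD1(G93A). Wild-type samples 11 and 17 lay among the SOD1(G93A) values. The log2 fold change was 0.17 (SE 0.095, 95% interval -0.036 to 0.38; limma adjusted p = 0.38), and the exact 2-sided permutation test of the 10 values gave p = 0.0952. The interval allows a rise of up to 0.38, as large as that of TBX2.

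ISL1, a LIM-homeodomain factor of sympathetic, sensory and motor neurons, read 9.39, 9.35, 9.60, 9.50 and 9.53 with wild-type SOD1 and 9.67, 9.39, 9.79, 9.69 and 9.98 with SOD1(G93A). Apart from sample 9 at 9.39, every SOD1(G93A) array was above every wild-type array, and sample 18 was highest. The log2 fold change was 0.23 (SE 0.10, 95% interval 0.0052 to 0.45; limma adjusted p = 0.255; exact permutation p = 0.0635), and it was not called under any of the alternatives run.

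HAND1, a bHLH factor of the sympathetic lineage and of the heart, read 8.40, 8.48, 8.60, 8.47 and 8.64 with wild-type SOD1 and 8.49, 8.11, 8.40, 8.15 and 8.37 with SOD1(G93A). Samples 9 and 15 were the low ones, and sample 3 lay within the wild-type range. The log2 fold change was -0.22 (SE 0.086, 95% interval -0.41 to -0.027). The exact permutation test of this gene alone gave p = 0.0476, while limma over all probe sets gave an adjusted p of 0.195.

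INSM1, the neuroendocrine zinc-finger repressor, had the tightest groups. It read 6.54, 6.64, 6.51, 6.49 and 6.53 with wild-type SOD1 and 6.48, 6.35, 6.57, 6.46 and 6.43 with SOD1(G93A), with overlap between the groups. The log2 fold change was -0.085 (SE 0.056, 95% interval -0.21 to 0.038; limma adjusted p = 0.485; exact permutation p = 0.0952). All 7 factors were brighter than the median probe set, and INSM1 was nearest to it, above 52.7% of probe sets.

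**Figure D2:**
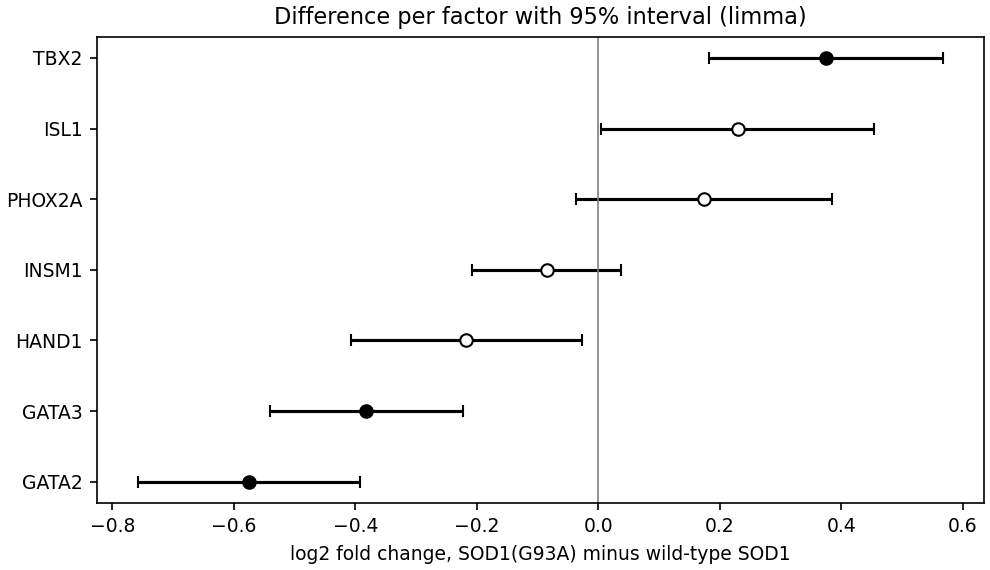
Log2 fold change (horizontal axis, SOD1(G93A) minus wild-type SOD1) of each measured factor with its 95% interval from limma, filled where the adjusted p was 0.05 or less. GATA2 (-0.58) and GATA3 (-0.38) lie below 0, TBX2 (0.38) above it, and the intervals of PHOX2A and INSM1 include 0.

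Within the groups, several factors moved up and down together from array to array. SOD1(G93A) sample 9 was the lowest of its group in 6 of the 7 factors, and wild-type sample 17 the highest of its group in 5. The share of all named genes that were lowest in sample 9 or highest in sample 17 was not counted. The mean deviation of the 7 factors from their group means was -0.18 in sample 9, 0.13 in sample 17 and -0.099 in wild-type sample 2, and between -0.059 and 0.057 in the other 7 arrays. Sample 9 also had the lowest upper quartile of all probe sets, 7.96, where the arrays ranged to 8.09. Over all named genes, sample 9 had the lowest mean deviation too, -0.039, and sample 17 the highest, 0.033. There sample 18 was at 0.032 and sample 2 at -0.0037. After the arrays were quantile-normalized again, the mean deviation of sample 9 was -0.13 and it was lowest of its group in 4 factors. Sample 2 was then at -0.10 and sample 17 at 0.095, while sample 12 went from 0.046 to 0.099, above sample 17. The part of overall array brightness in these shifts was not tested further.

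Over the 10 deviations, 18 of the 21 pairs of factors had a positive correlation, with a median Pearson r of 0.36. The pairs share arrays and labelling, and samples 9 and 17 were also the lowest and highest in mean deviation over all named genes. No count over pairs of other genes stands beside these coefficients, which are given as a description. PHOX2A went with TBX2 (r = 0.88) and GATA2 (r = 0.86), and HAND1 with GATA2 (r = 0.84). GATA3 and INSM1 went less with the others, GATA3 with r from -0.28 for INSM1 to 0.34 for TBX2, and INSM1 with r up to 0.36 for HAND1. GATA2 and GATA3, which both fell between the lines, had r = 0.31 within them.

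**Figure D3:**
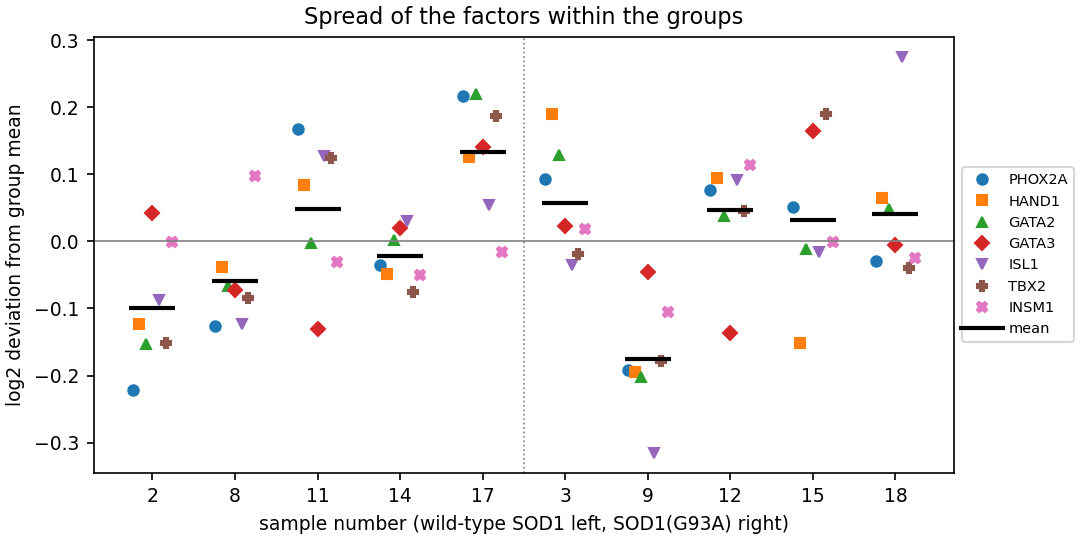
Log2 deviation (vertical axis) of each of the 7 factors from its group mean in the 10 arrays (horizontal axis, sample numbers), with black dashes for the mean of the 7. Sample 9 lies low in all 7 factors and sample 17 high in 6.

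The genes whose log2 values over the 10 arrays were most like those of GATA2 were KIF3C, a kinesin (r = 0.991), IGFBP2, an insulin-like growth factor binding protein (r = 0.985), and CACNG4 (r = 0.982). All 3 fell, by 0.56, 0.36 and 0.58 on the log2 scale. GATA3 was most like GAP43, a growth-cone protein (r = 0.956), PACS1 (r = 0.955) and TFPI2 (r = 0.953), which fell by 0.48, 0.45 and 0.86. TBX2 was most like CLU, the chaperone clusterin (r = 0.979), ENKD1 (r = 0.977) and MAP3K12, a neuronal stress kinase (r = 0.965). CLU and MAP3K12 rose by 0.62 and 0.26 on the log2 scale, and ENKD1 had a log2 fold change of 0.24 (limma adjusted p = 0.125). These coefficients take in the difference between the lines as well as the spread within them.

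Relatives of the factors were looked at next, since they read similar sites. Of 13 measured members of the GATA, LIM-homeodomain, T-box, INSM and related families, 2 rose and 1 fell by limma (23.1% called, against 9.60% of all named genes), with a median log2 fold change of 0.034 against -0.0043 over all named genes. INSM2, the close relative of INSM1, rose from 8.09 ± 0.21 to 9.38 ± 0.076 (n = 5 each, ± SD; log2 fold change 1.28, SE 0.097, adjusted p = 1.07e-05). TBX20, a T-box gene of heart and motor neurons, rose by 0.52 (SE 0.095). TBX3, the nearest relative of TBX2, fell by 0.72 (SE 0.16, adjusted p = 0.0203), and this call was lost without wild-type sample 2 (adjusted p = 0.0539). The other 10, which include GATA1, GATA4, GATA5, GATA6 and ISL2, had log2 fold changes from -0.12 to 0.17.

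Ratios of a factor to its relative within each array do not depend on array brightness that shifts all probe sets alike. They were computed for 4 pairs chosen after the values were seen, so they are a description and no test was run on them. How often the groups do not overlap in ratios of other gene pairs was not counted. The log2 ratio of TBX2 to TBX3 was 0.23 ± 0.33 with wild-type SOD1 and 1.32 ± 0.21 with SOD1(G93A) (SD, n = 5 each). The groups did not overlap, the highest wild-type array being sample 11 at 0.72 and the lowest SOD1(G93A) array sample 18 at 1.01. The log2 ratio of INSM1 to INSM2 was -1.55 ± 0.18 and -2.92 ± 0.084 (SD, n = 5 each), which follows the rise of INSM2.

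The log2 ratio of ISL1 to ISL2 was 2.67 ± 0.037 with wild-type SOD1 and 3.02 ± 0.16 with SOD1(G93A) (SD, n = 5 each), and neither gene was called on its own. Sample 18 gave the highest ratio, 3.28, and the groups did not overlap, with no share of other gene pairs beside this. The log2 ratio of GATA2 to GATA3 was 0.36 ± 0.12 and 0.16 ± 0.16 (SD, n = 5 each), with overlap. Whether GATA2 fell by more than GATA3 was not tested.

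**Figure D4:**
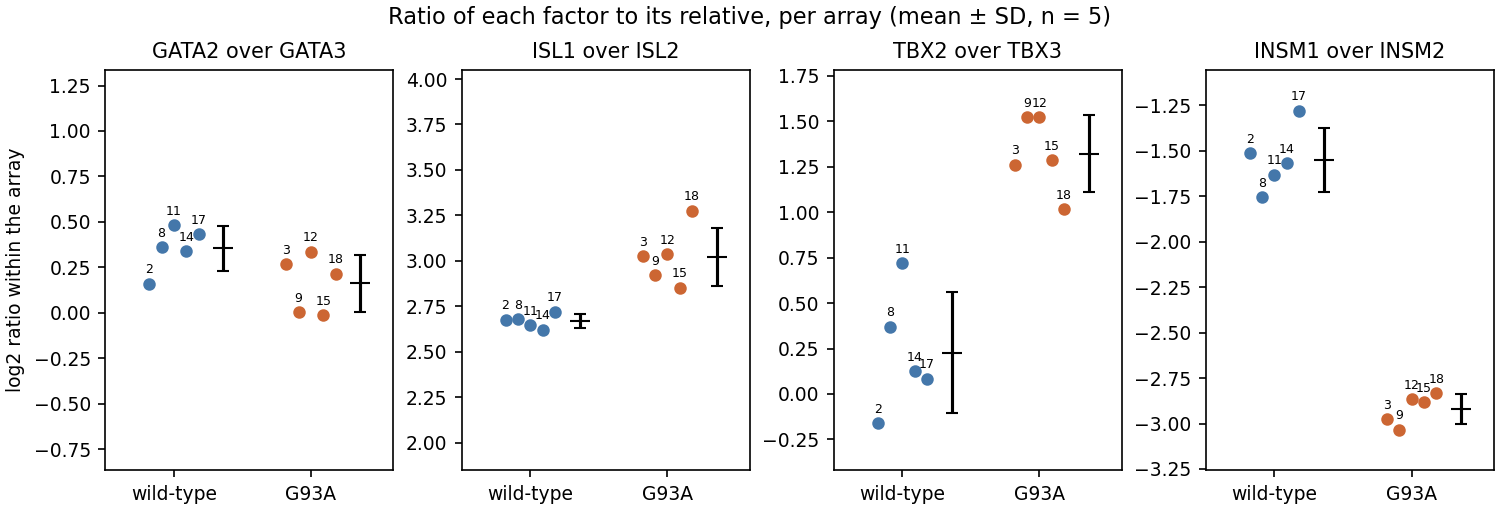
Log2 ratio of each factor to its relative within an array (vertical axis), by group, with sample numbers and mean ± SD (n = 5). The groups are apart for ISL1 over ISL2, TBX2 over TBX3 and INSM1 over INSM2 and overlap for GATA2 over GATA3. The pairs were chosen after the values were seen, and other gene pairs were not counted.

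The other factors of the noradrenergic circuit were split in direction. By limma 7 of the 14 measured were called, 3 higher and 4 lower, beside 9.60% of all named genes, with a median log2 fold change of -0.023. DACH1, a repressor that acts with EYA proteins, rose from 7.24 ± 0.082 to 8.34 ± 0.039 (n = 5 each, ± SD; log2 fold change 1.11, SE 0.054). Its partner EYA1 rose by 0.59 (SE 0.062) and the zinc-finger factor KLF7 by 0.53 (SE 0.080). SIX3, a homeodomain factor, fell from 7.83 ± 0.23 to 6.49 ± 0.28 (SD, n = 5 each), a log2 fold change of -1.34 (SE 0.15). HEY1, a bHLH repressor downstream of Notch, fell by 0.66 (SE 0.17), ZNF536 by 0.60 (SE 0.14) and SOX11, a factor of immature neurons, by 0.53 (SE 0.080).

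MYCN, the neuroblastoma oncogene, had a log2 fold change of 0.099 (SE 0.12, limma adjusted p = 0.753) and TFAP2B, a neural crest factor, of -0.023 (SE 0.12, limma adjusted p = 0.955). The 7 uncalled factors of this list lay between -0.15 and 0.14. The HEY1 call was lost without any 1 of 8 arrays, all but samples 8 and 18 (adjusted p up to 0.093), and its groups overlapped. That of ZNF536 was lost without sample 2, 3, 11, 14 or 18 (adjusted p up to 0.0638). SOX11, SIX3 and MYCN lie in a stretch of chromosome 2 from SH3YL1 to ACYP2 in which 101 of 201 named genes fell and 2 rose, with a median log2 fold change of -0.37. None of the 8 factors lies there (0 of 8).

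Genes that these factors are known to switch on, or that carry out the noradrenergic programme, came next. By limma 11 of the 18 measured were called (61.1%, beside 9.60% of all named genes), 7 higher and 4 lower, and the median log2 fold change was 0.070. Without single arrays the count of called genes ran from 9 to 10. NPY, the neuropeptide stored with noradrenaline, fell from 10.50 ± 0.14 to 8.84 ± 0.19 (n = 5 each, ± SD; log2 fold change -1.66, SE 0.10). The granule proteins CHGB and CHGA rose by 1.40 (SE 0.15) and 1.06 (SE 0.12), and the peripheral neuronal filament PRPH by 1.03 (SE 0.083). MAOA, which breaks down monoamines, rose by 0.95 (SE 0.095) and SLC18A2, a vesicular monoamine transporter, by 0.64 (SE 0.078). SLC18A2 was dim, at 4.39 with wild-type SOD1 and 5.02 with SOD1(G93A), above 33.1% of probe sets. The other such transporter of the list, SLC18A1, named after its values were seen, read 10.82 and 10.88. Its log2 fold change was 0.059 (limma adjusted p = 0.753). GAP43 fell by 0.48 (SE 0.062) and the receptor kinase ALK, which lies in the chromosome 2 stretch, by 0.44 (SE 0.081).

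Of the synthesis enzymes, DDC, which makes dopamine, rose by 0.28 (SE 0.064; limma adjusted p = 0.0231). This call was lost without wild-type sample 8, 11 or 17 (adjusted p up to 0.0615). TH, the first and rate-limiting enzyme of the pathway, was at 5.59 ± 0.083 and 5.67 ± 0.075 (n = 5 each, ± SD; log2 fold change 0.080, SE 0.060, limma adjusted p = 0.553). DBH was not analysed, since its probe set is annotated to several genes. The 7 uncalled genes of the list lay between -0.21 and 0.25.

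Partners that the factors bind, and inhibitors that bind those partners, came next. Of 21 measured, 7 fell and 0 rose by limma (33.3% called, beside 9.60% of all named genes), with a median log2 fold change of -0.13. At an unadjusted limma p under 0.05, 9 were lower and 1 higher, with no share of all named genes at that cutoff beside them. The higher one, SSBP2, which binds LDB proteins, had a log2 fold change of 0.23 (limma adjusted p = 0.0925). It was called higher after the arrays were quantile-normalized again, with 7 genes lower, and without sample 12. LMO3, a LIM-only bridging protein, fell from 8.38 ± 0.18 to 4.79 ± 0.19 (n = 5 each, ± SD; log2 fold change -3.60, SE 0.11). LDB2, which joins LIM proteins such as ISL1 to other factors, fell by 0.77 (SE 0.12). It was dim, at 5.49 with wild-type SOD1 and 4.72 with SOD1(G93A), above 37.1% of probe sets. Its relative LDB1, named after its values were seen, read 10.00 and 10.01 (log2 fold change 0.0097, limma adjusted p = 0.969). SSBP3, a relative of SSBP2, fell by 0.44 (SE 0.11).

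The ID genes encode inhibitors that take E proteins away from bHLH factors such as HAND1. ID4 fell by 1.33 (SE 0.15), ID2 by 0.98 (SE 0.098) and ID3 by 0.53 (SE 0.13), while ID1 had a log2 fold change of -0.28 (SE 0.12, limma adjusted p = 0.228). ID2 lies in the chromosome 2 stretch. Named after their values were seen, the E protein genes TCF3, TCF4 and TCF12 were not called by limma, with log2 fold changes of -0.13, -0.025 and -0.13. KDM1A, the histone demethylase that INSM1 and other SNAG-domain repressors recruit, fell by 0.32 (SE 0.082). The calls of SSBP3, ID3 and KDM1A were lost without any 1 of 7, 7 and 8 arrays (adjusted p up to 0.0734, 0.0755 and 0.10) and their groups overlapped. The unmoderated test called 4 genes of this list, and so did limma without sample 9, 11, 14 or 17.

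Of 26 measured factors of the mesenchymal state, 2 rose and 2 fell by limma (15.4% called, beside 9.60% of all named genes), with a median log2 fold change of 0.014. YAP1, a Hippo pathway coactivator, rose by 0.66 (SE 0.072) and NR3C1, the glucocorticoid receptor, by 0.30 (SE 0.070). SNAI2 fell by 1.03 (SE 0.098) and SMAD3, a mediator of TGF-beta signals, by 0.62 (SE 0.085). The NR3C1 call was lost without sample 2, 8, 9, 17 or 18 (adjusted p up to 0.0674). The mean log2 level of the 26 genes was 6.01 to 6.11 with wild-type SOD1 and 6.02 to 6.13 with SOD1(G93A), which overlap.

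**Figure D5:**
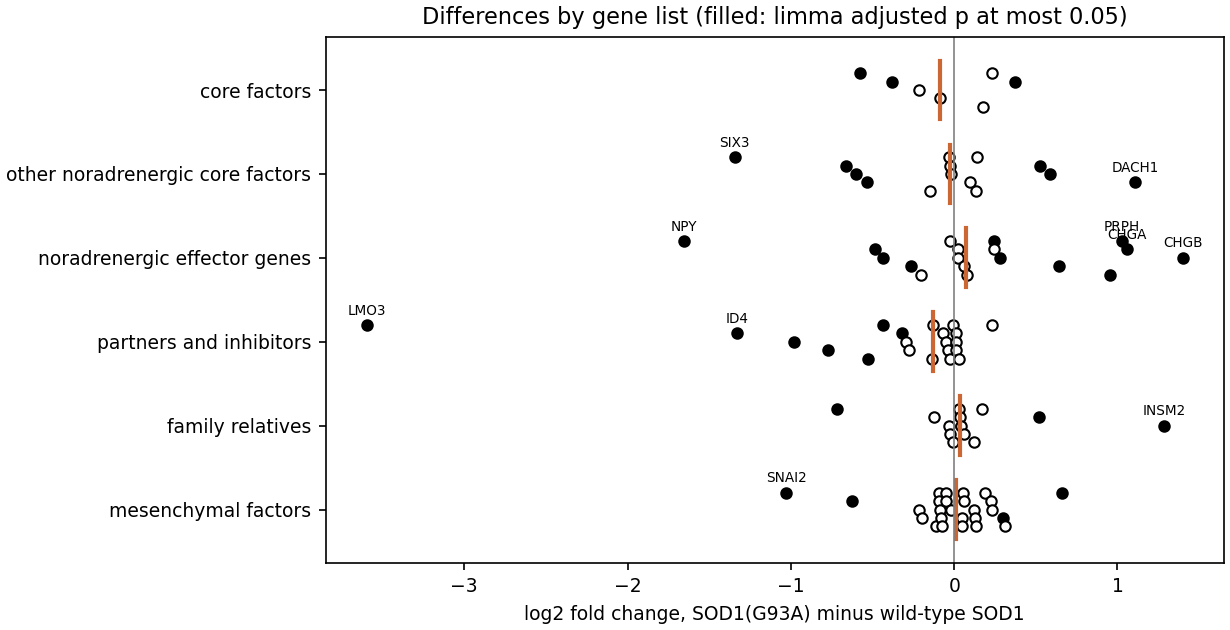
Log2 fold change (horizontal axis, SOD1(G93A) minus wild-type SOD1) of every measured gene in 6 lists, filled where limma's adjusted p was 0.05 or less, with an orange bar at the list median. The core factors lie between -0.58 and 0.38, the partners and inhibitors reach -3.60 (LMO3), and the family relatives reach 1.28 (INSM2).

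Across the series, array medians ran from 6.26 to 6.34, and the SOD1 probe set, which reads mutant and wild-type RNA alike and is no check of the labels, read 9.78 ± 0.13 and 9.55 ± 0.087 (SD, n = 5 each; limma adjusted p = 0.107). In markers of sympathetic neuroblastoma, 6 of 8 were measured, and DDC, CHGA, STMN2, ELAVL4 and GAP43 were brighter than the median probe set while TH was not. None of the 13 measured immune, endothelial and adrenal cortex markers was called by limma (0 of 13, beside 9.60% of all named genes). At an unadjusted p under 0.05 there were also 0, with no share of all named genes at that cutoff beside it. Among 6 markers of Schwann cells and glia, S100B was the 1 called (16.7%, beside 9.60% of all named genes), higher by 0.73 (SE 0.11). It was dim, at 3.69 with wild-type SOD1, below the lower quartiles of the arrays (3.84 to 3.89), and 4.42 with SOD1(G93A). The mean level of the 6 was 4.18 to 4.25 with wild-type SOD1 and 4.22 to 4.37 with SOD1(G93A). Of 7 motor and sensory neuron markers, 2 were called (28.6%, beside 9.60% of all named genes). The bHLH gene NEUROG2 rose by 0.76 (SE 0.16), with overlap of the groups, and the homeobox gene TLX3 by 0.50 (SE 0.099). The mean of these 7 was 5.91 to 6.27 with wild-type SOD1 and 6.16 to 6.39 with SOD1(G93A), and their part in the results was not tested. In RNA from whole cultures, fewer cells with a factor and less of its RNA per cell cannot be told apart.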

How the data were processed

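The authors deposited gene-level log2 intensities for 22011 probe sets in 10 arrays; per the submitters' processing notes they used RMA, and per the labels oneChannelGUI 1.6.5. RMA equalises the arrays, so a change of all genes together is not visible, and differences of dim probes are compressed. The genome build and filters were not given in the sources used here. Precision is limited by the number of arrays.

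Groups came from the sample titles. Gene symbols come from the platform annotation, which gives 1 symbol to 14432, several to 2408 and none to 5171; each gene was read from its brightest single-symbol probe set. limma 3.58.1 in R 4.3.3 (lmFit, eBayes, 2-sided) was fitted to all probe sets and checked on simulated data; exact permutation tests used scipy 1.17.1. Gene order and promoter windows are from RefSeq (GRCh38.p14).

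The members, the 5 gene lists and the tests were chosen with earlier results of these data known. Named from a list were at most 8 called genes, by largest change, and MYCN, TFAP2B, SOX11, TH, DBH and DDC, with others that are not reported here; for each called factor, the 3 genes with the highest correlation. Other genes named were picked for their place or family after their values were seen. Alternatives changed the moderation, variance trend, array weights, normalization, level filter, adjustment, probe set choice, a block of neighbouring sample numbers and the arrays used.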

Additional observations from a re-analysis of the deposited data

Results flagged for a closer look

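EYA1 had an array far from the others of its group in both lines. Wild-type sample 2 read 9.23, against 8.98 to 9.05 in the other 4 arrays, and SOD1(G93A) sample 12 read 9.53, against 9.65 to 9.69. Both gaps were over 0.71 of the group's range, Dixon's 95% critical value for 5 samples, a limit that chance passes in about 1 group in 20; 88 groups were checked. EYA1 stayed called in all 20 alternatives that gave it a value.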

How the results depend on the processing

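The groups share no sample number and the labels state no pairing. Deviations of arrays with consecutive numbers (2 with 3, and so on to 17 with 18) had r from -0.034 to 0.14, and 2 of the 5 wild-type arrays went best with their own neighbour. With these neighbours as a replicate block, a fit chosen after seeing the data, 2 factors were called, and TBX2 (0.38, adjusted p = 0.0591), DDC, ID3, KDM1A, NR3C1 and ZNF536 passed the threshold no longer. GATA2 and GATA3 were called under each of the 20 alternatives, with log2 fold changes from -0.61 to -0.52 and from -0.42 to -0.35. PHOX2A, HAND1, ISL1 and INSM1 kept their sign and were called under none (lowest adjusted p 0.0657, for ISL1). TBX2 was lost without any 1 of 6 arrays, named above; its log2 fold change without single arrays ran from 0.33 to 0.42, and the number of called factors from 2 to 3. The partners and inhibitors counted 4 called genes under the unmoderated test, and 4 to 7 without single arrays. The difference in log2 ratio of ISL1 to ISL2 was 0.35, 0.30 without samples 17 and 18, and 0.29 to 0.40 without single arrays. TFAP2B, never called, changed sign without sample 9 (0.035), 11 (0.036) or 14 (0.016), and ran from -0.087 to 0.036 without single arrays. The unmoderated test lost HEY1, ID3, KDM1A, SSBP3, TBX3 and ZNF536, and array weights lost ID3. With samples 17 and 18 both left out, which was chosen after seeing the data, DDC, ID3, NR3C1 and ZNF536 were lost (adjusted p 0.0825 to 0.14). Without the genes of the chromosome 2 stretch, also added later, no list count moved by over 1.5 times. The cause of these losses was not tested. Genes dimmer than the median probe set had no value in the test of bright probe sets alone.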
